A study of Mus musculus with 45 samples.

Results

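Expression of 10 genes of the Notch pathway was followed across all 15 groups of the study. Earlier results of these data were known when the genes were chosen. They were chosen by function: the receptors Notch1, Notch2 and Notch3, the ligands Dll1, Jag1 and Jag2, the target genes Hes1, Hey1 and Heyl, and Rbpj, the DNA-binding protein through which the pathway acts. They are 10 of 35675 genes with summed reads, and all 10 were among the 17325 genes that passed the filter on low counts. Ligands, receptors and targets are kept apart throughout.

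Notch signalling passes between touching cells. A ligand of the Delta or Jagged family on 1 cell binds a Notch receptor on its neighbour, the receptor is cleaved, and its intracellular domain enters the nucleus, binds Rbpj and switches on repressors of the Hes and Hey families. In skeletal muscle the pathway is known for holding satellite cells, the resident stem cells, in an undifferentiated state, while Dll1 is known as a ligand made by myogenic cells that move on to differentiate.

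The cells came from mice of the genotype given as Tg:Pax7-nGFP/C57BL6;DBA2, in which a nuclear green fluorescent protein reports Pax7, a marker gene of satellite cells. Mouse embryonic fibroblasts (MEFs) with doxycycline-inducible MyoD, the factor that turns fibroblasts into muscle, were taken without treatment and on days 2, 4, 6, 8 and 10 of doxycycline. The drug was given either alone (MyoD alone, cells named myotubes in the labels) or with F/R/C, an addition whose letters the labels do not spell out (cells named muscle fibers and progenitor cells). The other groups were bulk induced myogenic progenitor cells (iMPCs), kept in F/R/C medium after 13 days of doxycycline with F/R/C, sorted Pax7+ iMPCs, bulk primary myoblasts from skeletal muscle, and sorted Pax7+ myoblasts. Each group had 3 libraries. Nothing in the labels says whether these came from separate embryos, animals or cultures, so p-values measure the spread between libraries, which may be technical. All cells were profiled as RNA from many cells together, so fewer cells of a type and less RNA per cell cannot be told apart.

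Libraries held from 15.6 to 36.3 M estimated reads. Levels of a gene across groups are given as CPM, its reads scaled to library size with TMM factors. A gene was called where the edgeR adjusted p was under 0.05 and the log2 fold change at least 1 in either direction. Myod1 stood at 0.761 to 8.84 CPM in MEFs, at 622 to 5184 CPM with MyoD alone and at 543 to 1360.2 CPM with MyoD and F/R/C, so every induced library carried far more of it than any MEF library. Between the arms Myod1 differed early. On day 2 it was 1998, 3575 and 2303 CPM with MyoD alone and 799.8, 1353 and 723 CPM with F/R/C. The arms lay apart on days 4 and 6 as well. On day 10 they overlapped, at 742, 2024 and 622 CPM against 607, 992 and 777 CPM. The part of Myod1 in the Notch differences was not tested. Pax7 was without reads in all 3 libraries of day 2 with F/R/C, although the label names progenitor cells, and reached 47.1 to 75.7 CPM on day 10. A pair of libraries stood apart. MEF replicate 1 had the highest Myod1 level of the MEFs and had 103 CPM of Notch1 and 261 CPM of Rbpj, against 31.1 to 33.3 CPM and 576 to 622 CPM in the other MEFs. Bulk myoblast replicate 3 had 59.8 CPM of Myog, the differentiation factor myogenin, against 619 to 888 CPM in the other bulk myoblasts, and a summed level of 12 differentiated muscle genes of 1165 CPM against a median of 19271 CPM. Values that move by their absence are given with and without them.

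The members lie on 7 chromosomes of GRCm38 and each spans exons and introns of a protein-coding gene. Notch1 (chr2:26457903-26516663), Notch3 (chr17:32120820-32166852), Dll1 (chr17:15367354-15376872), Jag1 (chr2:137081456-137116644), Jag2 (chr12:112907819-112929776) and Hey1 (chr3:8663359-8667256) are on the minus strand. Notch2 (chr3:98013527-98150361), Hes1 (chr16:30064384-30067796), Heyl (chr4:123233556-123249875) and Rbpj (chr5:53466152-53657362) are on the plus strand. The summed counts of Notch2 and Rbpj were whole numbers (within 0.001) in 2 of 45 libraries each. Those of the others were whole in 15 (Notch1) to 43 (Hes1) libraries. Sums that are not whole can come from reads divided with other genes or from rounded transcript values. Which of these applied was not tested, so the levels of Notch2 and Rbpj may be the least certain.

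All 3 ligands and all 3 targets were called higher than in MEFs after 2 days of MyoD alone, and MyoD binds short sequences called E-boxes, so the promoters of the ligands, which of these 6 genes are those with a window in the table, are shown. Each line gives the 250 bases before a RefSeq transcription start on GRCm38.p6, 5′ to 3′ on the strand of the gene. Capitals mark E-boxes, searched as CAGCTG (its own reverse complement) and CAGGTG on both strands.
Dll1, chr17:15376933-15377182, minus strand: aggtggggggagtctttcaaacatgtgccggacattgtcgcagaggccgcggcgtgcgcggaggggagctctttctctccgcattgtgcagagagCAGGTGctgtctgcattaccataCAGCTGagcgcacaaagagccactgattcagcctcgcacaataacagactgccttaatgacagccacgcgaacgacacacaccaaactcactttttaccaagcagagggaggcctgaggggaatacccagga
Jag1, chr2:137116521-137116770, minus strand: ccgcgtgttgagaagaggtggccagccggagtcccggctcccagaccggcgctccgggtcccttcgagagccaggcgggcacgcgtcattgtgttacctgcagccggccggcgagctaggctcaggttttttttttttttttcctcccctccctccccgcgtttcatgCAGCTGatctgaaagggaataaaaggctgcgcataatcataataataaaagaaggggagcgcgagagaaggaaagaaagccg
Jag2, chr12:112929496-112929745, minus strand: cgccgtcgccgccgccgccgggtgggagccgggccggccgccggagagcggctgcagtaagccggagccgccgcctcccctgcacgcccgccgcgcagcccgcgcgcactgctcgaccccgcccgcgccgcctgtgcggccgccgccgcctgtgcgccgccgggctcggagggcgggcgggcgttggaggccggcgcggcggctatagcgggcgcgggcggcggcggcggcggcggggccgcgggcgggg
Dll1 has CAGGTG with its first base at position -155 and CAGCTG at -132, counted back from the start, and Jag1 has CAGCTG at -82. The Jag2 window has neither, and nor has a window before another start of Dll1 (chr17:15375824-15376073). Rbpj, which was called lower in that comparison, has CACCTG, the reverse complement of CAGGTG, at -212 in a window not printed. Either E-box was present in 27.7% of all 32851 windows of this length, so a match is common. The Rbpj core TGGGAA, searched on both strands, was in none of the ligand windows and in 21.6% of all windows. Of the members, 7 of 10 had a promoter window in the table; Hes1, Hey1 and Heyl had no window. Matches are a description of letters and do not show binding.

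The target genes separated into a pair that was higher with F/R/C by day 10 and 1 that was lower. Hey1 and Heyl, both repressors known from muscle stem cells, were present in both arms by day 2, then faded with MyoD alone and stayed high with F/R/C. Hes1, the most widely expressed of the Hes repressors, was lower with F/R/C on every day.

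Hey1 on day 2 was 16.5, 20.0 and 16.7 CPM with MyoD alone and 32.8, 37.8 and 58.8 CPM with F/R/C. The groups did not overlap, but the difference was not called (log2 fold change 1.28, SE 0.52, edgeR adjusted p = 0.12). By day 10 the libraries with MyoD alone were at 2.59, 3.27 and 0.976 CPM and those with F/R/C at 65.5, 47.1 and 28.5 CPM. All 3 libraries with F/R/C were far above all 3 without, and Hey1 rose with F/R/C (log2 fold change 4.38, SE 0.59, edgeR adjusted p = 2.1e-06). On days 4, 6 and 8 it was also called, with log2 fold changes of 2.50, 3.28 and 4.12.

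Heyl on day 2 was 58.5, 78.4 and 111 CPM with MyoD alone and 35.5, 57.1 and 70.6 CPM with F/R/C. These groups overlapped (log2 fold change -0.60, SE 0.61, edgeR adjusted p = 0.61). On day 10 it was 6.43, 6.00 and 1.32 CPM with MyoD alone and 168, 124 and 88.5 CPM with F/R/C. Every library with F/R/C then lay more than 10 times above every library without. Heyl rose with F/R/C on day 4 (log2 fold change 1.70, adjusted p = 0.045), day 6 (3.02), day 8 (4.16) and day 10 (4.80, SE 0.72, edgeR adjusted p = 7.6e-06). The day 4 groups overlapped, and that call was lost when any 1 of 4 libraries was left out, down to 1.02 (edgeR adjusted p = 0.32) without F/R/C replicate 3, whose 109 CPM was the highest of its group.

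Hes1 on day 2 was 75.3, 78.2 and 69.5 CPM with MyoD alone and 35.5, 40.8 and 40.6 CPM with F/R/C. On day 10 it was 39.1, 33.4 and 29.4 CPM against 17.5, 21.4 and 20.9 CPM. On each of the 5 days every library with F/R/C was below every library without. The log2 fold changes ran from -0.93 to -0.70 (edgeR adjusted p from 0.0065 to 0.016), which passes the p threshold but is below the minimum fold change of 2, so Hes1 was not called on any day. The day 10 difference minus the day 2 difference was 0.16 (SE 0.31, edgeR adjusted p = 0.79), with a 95% interval from -0.48 to 0.80.

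**Figure D1:**
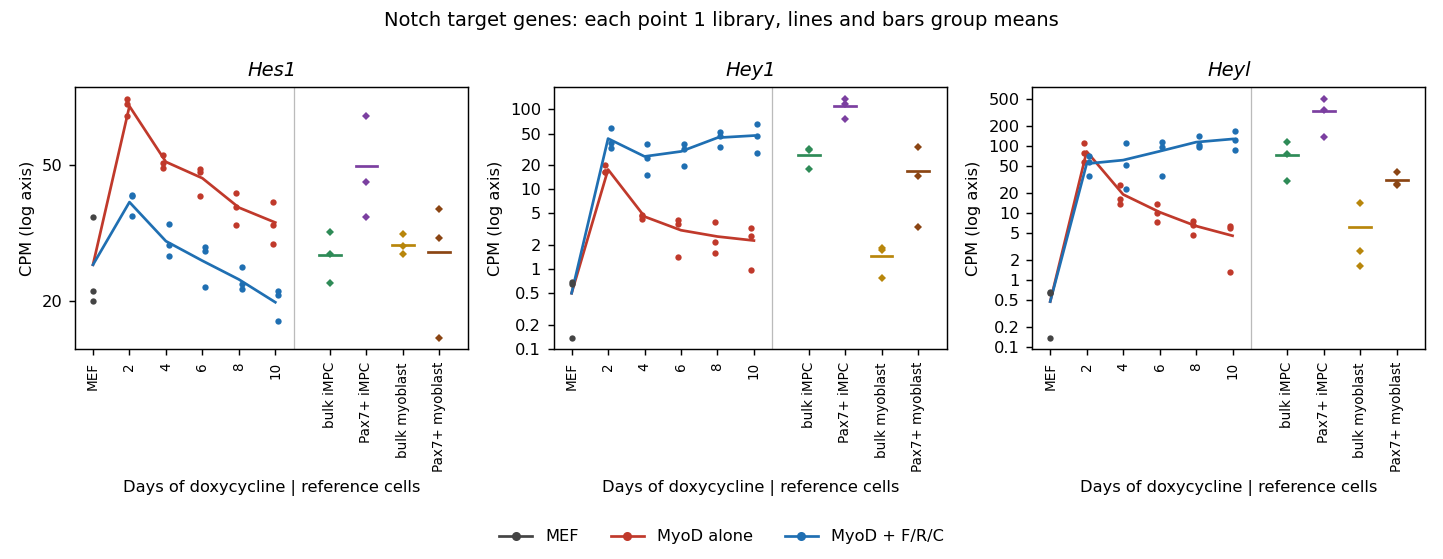
CPM of Hes1, Hey1 and Heyl (log axis) in MEFs, after 2 to 10 days of MyoD alone or MyoD with F/R/C, and in the 4 reference cell groups; points are libraries, lines and short bars are means of 3. Hey1 and Heyl fade with MyoD alone to means of 2.28 and 4.58 CPM on day 10 and stay at 47.1 and 127 CPM with F/R/C, while Hes1 is lower with F/R/C on all 5 days.

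Among the ligands, Dll1 went the way of Hey1 and Heyl, while Jag1 and Jag2 were called on no day in edgeR with all groups. Dll1 is the Delta ligand of the set, and it alone of the ligands fell between day 2 and day 10 of MyoD alone.

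Dll1 was nearly silent in MEFs, with 13, 3 and 10 reads. On day 2 it was 68.7, 68.7 and 86.6 CPM with MyoD alone, above the 39.5, 43.6 and 41.9 CPM with F/R/C in every library. That difference was not called (log2 fold change -0.84, SE 0.37, edgeR adjusted p = 0.16). On day 10 the order was turned round, with 3.84, 8.52 and 2.30 CPM with MyoD alone and 50, 49.9 and 36.3 CPM with F/R/C. The groups again did not overlap, and Dll1 rose with F/R/C (log2 fold change 3.22, SE 0.40, edgeR adjusted p = 6.7e-07). It was called on day 6 (1.38) and day 8 (2.61) as well, and not on day 4 (0.28, edgeR adjusted p = 0.62).

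Jag1 in the arm of MyoD alone ranged from 21.5 to 82.6 CPM and with F/R/C from 19.6 to 51.0 CPM. The arms overlapped on days 2, 8 and 10, lay apart on days 4 and 6, and edgeR with all groups called no single day, with log2 fold changes from -1.13 to -0.26. Day 4 (-1.13, edgeR adjusted p = 0.06) was called lower by DESeq2 and by edgeR on those 2 groups alone. Replicate 1 was the highest library of its group on every day with MyoD alone. Averaged over the 5 days, the Jag1 difference was -0.60 (SE 0.20, edgeR adjusted p = 0.0088), below the minimum fold. Jag2 ranged from 21.3 to 77.0 CPM with MyoD alone and from 21.1 to 120.3 CPM with F/R/C. Its average difference was 0.51 (SE 0.20, edgeR adjusted p = 0.023), and no day was called.

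**Figure D2:**
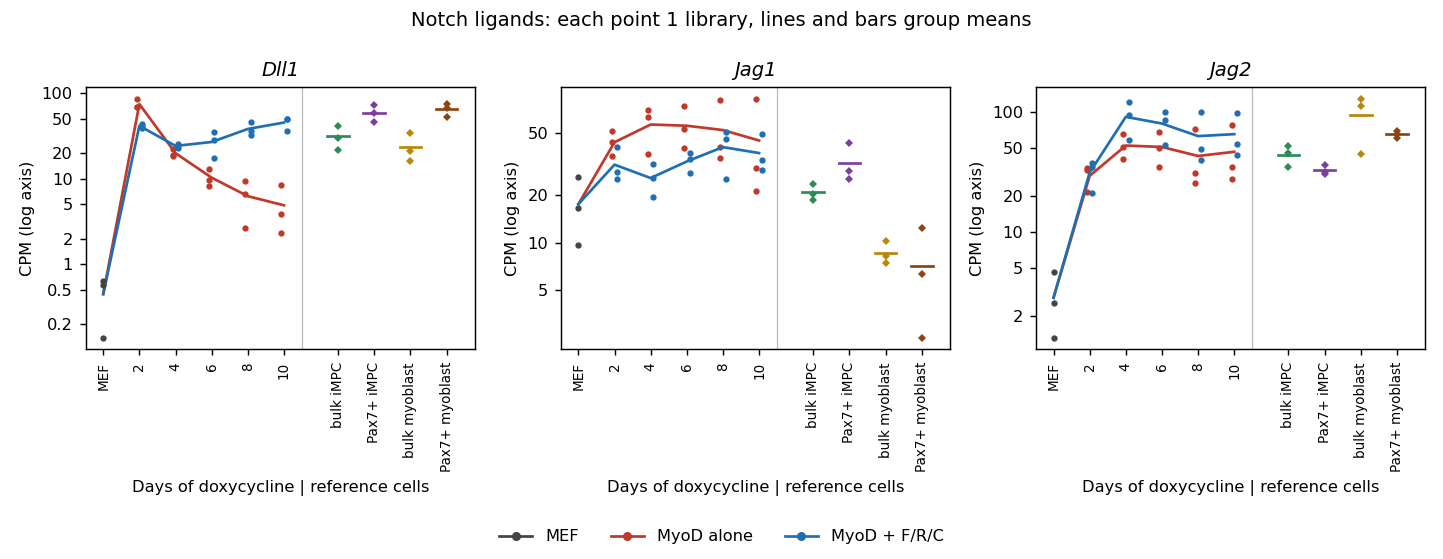
CPM of Dll1, Jag1 and Jag2 (log axis) in the same groups; points are libraries, lines and short bars are means of 3. Dll1 falls with MyoD alone from a mean of 74.7 CPM on day 2 to 4.89 CPM on day 10 and is 45.4 CPM on day 10 with F/R/C; edgeR with all groups called Jag1 and Jag2 on none of the 5 days.

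Of the receptors, Notch1 and Notch3 were higher with F/R/C and Notch2 was not. Notch1 is the broadly expressed receptor, Notch2 is also found in muscle stem cells, and Notch3 is known from muscle stem cells and from vascular smooth muscle. Rbpj, which all receptors share, differed little between the arms.

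Notch1 on day 10 was 62.5, 33.5 and 68.9 CPM with MyoD alone and 207, 224 and 149 CPM with F/R/C. No library of either group reached the other group, and Notch1 rose with F/R/C (log2 fold change 1.81, SE 0.36, edgeR adjusted p = 0.00018). On days 6 and 8 it was called too (1.41 and 2.02), while days 2 and 4 gave 0.97 and 0.84 and were not called. The Notch1 groups of days 2 and 4 did not overlap either. Notch3 on day 10 was 73.3, 33.1 and 59.1 CPM with MyoD alone and 315, 223 and 214 CPM with F/R/C. Again the groups were far apart, with a log2 fold change of 2.18 (SE 0.51, edgeR adjusted p = 0.0011). Notch3 was called from day 4 on, with 1.92, 2.16 and 2.12 on days 4, 6 and 8, and not on day 2 (1.34, edgeR adjusted p = 0.094). Its day 2 groups did not overlap.

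Notch2 on day 10 was 97.0, 71.3 and 102 CPM with MyoD alone and 90.5, 99.6 and 66.5 CPM with F/R/C. The groups covered the same range, and the difference was -0.07 on the log2 scale, with a 95% interval from -0.45 to 0.31. On day 4 every library with F/R/C was below every library without, and Notch2 was not called (-0.46, edgeR adjusted p = 0.073). Averaged over the 5 days, the Notch2 difference was -0.22 (SE 0.08, edgeR adjusted p = 0.022), below the minimum fold. Rbpj on day 10 was 147, 146 and 264 CPM with MyoD alone and 251, 297 and 257 CPM with F/R/C. The groups overlapped through replicate 3 of MyoD alone. The daily log2 fold changes of Rbpj ran from 0.41 to 0.53 without a call, and their average was 0.46 (SE 0.11, edgeR adjusted p = 0.00068).

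**Figure D3:**
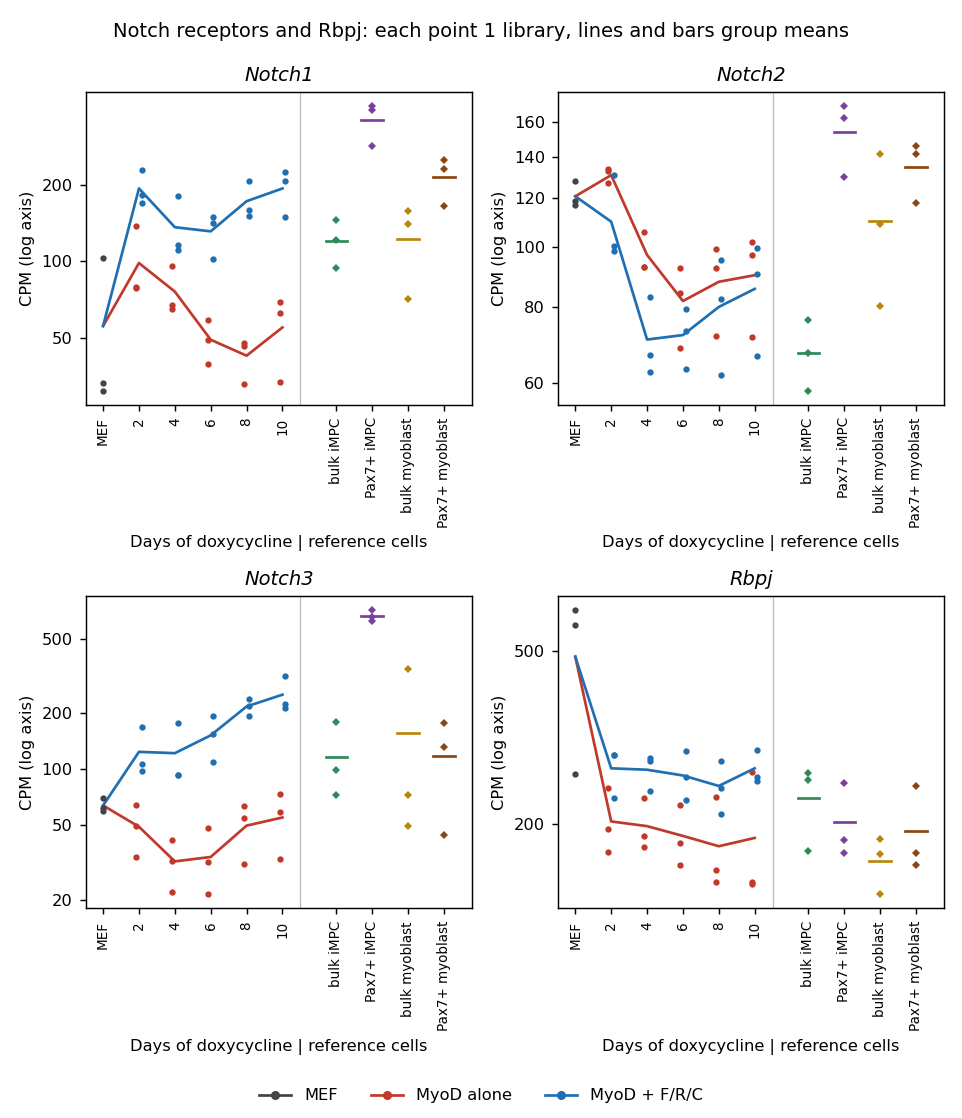
CPM of Notch1, Notch2, Notch3 and Rbpj (log axis) in the same groups; points are libraries, lines and short bars are means of 3. Notch1 and Notch3 lie apart between the arms on all 5 days. Their day 10 means with F/R/C are 193 and 251 CPM, against 55.0 and 55.2 CPM with MyoD alone. Notch2 lies apart on day 4 only, and Rbpj is highest in MEFs.

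The number of members called between the arms grew with time against a background that grew as well. None of the 10 was called on day 2, where 4.93% of all genes tested were called. There 5 members (Notch1, Notch3, Dll1, Hes1 and Hey1) had an unadjusted p under 0.05 in edgeR, as had 3834 of the 17325 genes tested. DESeq2 called no member either. A fit in edgeR of the 2 groups of day 2 alone called Notch3 and Hey1, among 1420 genes called. On day 4, 3 members were called, all higher (6.58% of all genes were called higher). On day 6 there were 5 (8.23%), on day 8 again 5 (9.20%) and on day 10 there were 5 (9.91%). The 5 were Notch1, Notch3, Dll1, Hey1 and Heyl on days 6, 8 and 10, all higher with F/R/C. Averaged over the 5 days the same 5 were called higher, against 11.6% of all genes. Their average log2 fold changes were 1.41 for Notch1, 1.94 for Notch3, 1.33 for Dll1, 3.11 for Hey1 and 2.62 for Heyl, with standard errors from 0.16 to 0.29 and edgeR adjusted p from 3.9e-12 to 3.6e-08. Same-numbered libraries of neighbouring days correlated, for example from 0.502 to 0.751 between days 8 and 10 of MyoD alone, so the 15 libraries of an arm may not be independent and these errors and p may be too small. All 10 members passed the adjusted p threshold without the fold minimum, as did 61.5% of all genes. The median over all genes was -0.03.

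The change of the difference from day 2 to day 10 was tested as an interaction. It was called for Dll1 (4.07, SE 0.54, edgeR adjusted p = 6.3e-05), Hey1 (3.10, SE 0.75, adjusted p = 0.013) and Heyl (5.41, SE 0.92, adjusted p = 0.0011), which are 3 of 10 members against 2.24% of all genes called higher. Notch1 and Notch3 gave 0.84 and 0.85 and were not called. In the arm of MyoD alone, 4 members fell between day 2 and day 10, against 1.76% of all genes called lower. Dll1 fell by 3.94, Hey1 by 2.97, Heyl by 4.19 and Hes1 by 1.13 on the log2 scale (edgeR adjusted p from 3.0e-07 to 0.001). With F/R/C no member was called between those days, against 16.0% of all genes. There 3 members (Notch3, Jag2 and Hes1) had an unadjusted p under 0.05 in edgeR, as had 6705 of the 17325 genes tested. DESeq2 called 1 member, Jag2, among 3013 genes. A fit in edgeR of those 2 groups alone called 3 (Notch3, Jag2 and Heyl), among 2585 genes. The F/R/C arm differed by 0.12 (SE 0.36) for Dll1, 0.12 (SE 0.50) for Hey1 and 1.22 (SE 0.61) for Heyl, and by -0.97 for Hes1 (SE 0.22, edgeR adjusted p = 0.0019). These contrasts share their day 2 and day 10 libraries.

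**Figure D4:**
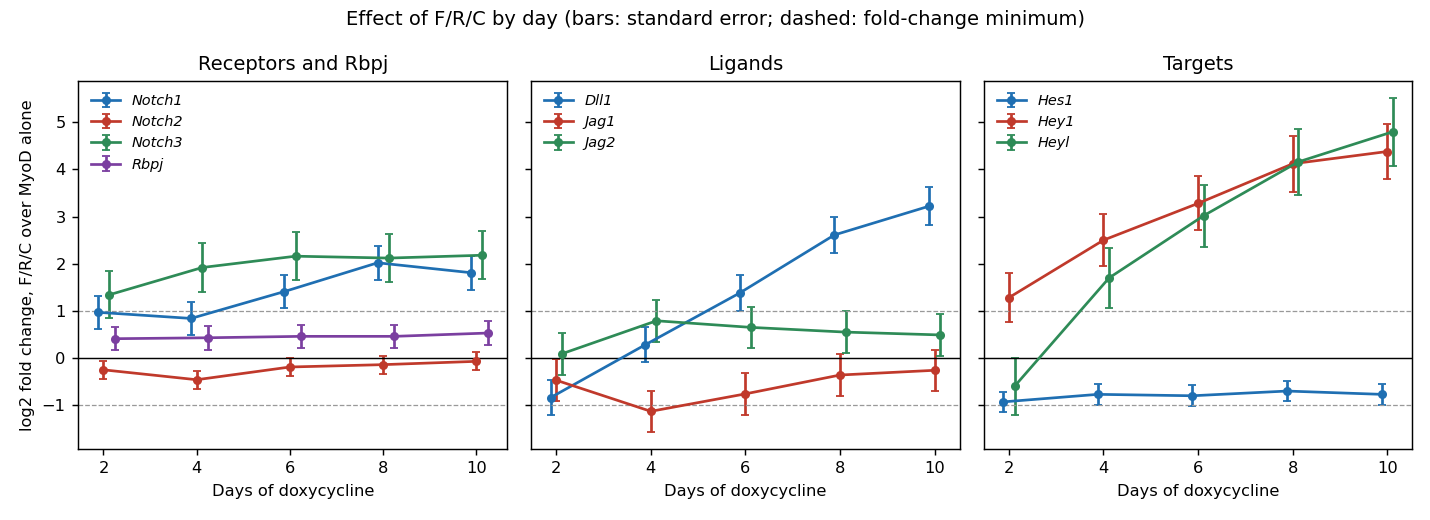
Log2 fold change of MyoD with F/R/C over MyoD alone by day, for receptors and Rbpj, ligands, and targets; bars are standard errors and dashed lines mark the minimum fold change. The lines of Dll1, Hey1 and Heyl climb to 3.22, 4.38 and 4.80 on day 10. Those of Notch1 and Notch3 start at 0.97 and 1.34 on day 2 and are at 1.81 and 2.18 on day 10. The Hes1 line runs between -0.93 and -0.70.

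Summed marker genes of other cells and states differed between the arms as well. On day 10 the summed level of 12 proliferation genes was 60.3 to 521 CPM with MyoD alone and 585 to 1290 CPM with F/R/C, and that of 12 fibroblast genes was 14005 to 30529 CPM against 1447 to 5471 CPM. The mean log2 CPM of the same 12 fibroblast genes was close on day 10, at 7.0 with MyoD alone and 6.74 with F/R/C. On day 2 it was higher with F/R/C, at 7.25 against 6.47. A sum of 8 pericyte and smooth muscle genes was 2843 to 7519.8 CPM against 1127 to 1858 CPM. Of these 8 genes, Kcnj8 was called higher with F/R/C on day 10 and Cspg4, Tagln and Cnn1 lower. The 8 endothelial genes summed to 6.44 to 9.53 CPM against 2.07 to 3.18 CPM, with Tie1 at no more than 3 reads in every library of both groups. Averaged over the days, 11 of the 12 proliferation genes were called higher with F/R/C, while of the 12 fibroblast genes 4 were called higher and 3 lower. The part of these markers and their cells in the Notch differences was not tested.

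Against untreated MEFs, the ligands and targets were higher after 2 days of MyoD alone. Of the 10 members 7 were called, against 22.4% of all genes: Dll1, Jag1, Jag2, Hes1, Hey1 and Heyl rose and Rbpj fell. Hey1 and Heyl had 3 to 15 reads in each MEF library, as Dll1 had, so these 3 began from almost nothing. Their log2 fold changes were 5.16, 7.44 and 7.40 (edgeR adjusted p from 3.4e-12 to 3.0e-07). Jag2 was 1.32, 2.56 and 4.63 CPM in MEFs and 21.3, 32.6 and 34.1 CPM on day 2 and rose by 3.39 (SE 0.50). Hes1 was 20.1, 21.4 and 35.4 CPM in MEFs, below all day 2 libraries, and rose by 1.54 (SE 0.23, edgeR adjusted p = 3.0e-06). Jag1 was 26.3, 9.71 and 16.7 CPM in MEFs and rose by 1.31 (edgeR adjusted p = 0.021), a call lost without any 1 of 3 libraries. The lowest such value was 1.01 (adjusted p = 0.12) without MEF replicate 2. Rbpj was at 261, 622 and 576 CPM in MEFs and at 173, 195 and 242 CPM on day 2, and fell by 1.26 on the log2 scale (edgeR adjusted p = 0.00023), or by 1.58 without MEF replicate 1. Notch1 was not called (0.82, edgeR adjusted p = 0.063), but without MEF replicate 1 it was (1.59, adjusted p = 0.00073). Notch2 and Notch3 were not called, at 0.11 and -0.38. The 12 differentiated muscle genes summed to 55.1 to 173 CPM in MEFs and 15704 to 24254 CPM on day 2 of MyoD alone. The 12 fibroblast genes summed to 20187 to 25301 CPM in MEFs and 13079.8 to 18010.5 CPM on that day. The part of both in these changes was not tested.

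After 10 days of MyoD alone 6 members were still called against MEFs (18.9% of all genes). Dll1 (3.45), Jag2 (4.06) and Heyl (3.26) were higher with every library left out in turn. Hey1 (2.19, edgeR adjusted p = 0.012), whose MEF libraries held 3 to 15 reads, lost its call without MEF replicate 2 (1.71) or day 10 replicate 2 (1.83). Jag1 (1.34) lost it without MEF replicate 2 (1.04), MEF replicate 3 (1.27) or day 10 replicate 1, without which it was 0.52 (adjusted p = 0.40). Rbpj fell by 1.39 (edgeR adjusted p = 8.6e-05), or by 1.71 without MEF replicate 1. Notch1 was at -0.02, and at 0.75 (edgeR adjusted p = 0.098) without that library. On day 2 with F/R/C, 5 members were called against MEFs, all higher (11.5% of all genes were called higher): Notch1 by 1.79, Dll1 by 6.55, Jag2 by 3.49, Hey1 by 6.45 and Heyl by 6.84. On day 10 with F/R/C there were 7, all higher, against 19.0% of all genes called higher. Notch1 (1.79) and Notch3 (1.97) were the receptors among them, beside Dll1 (6.68), Jag1 (1.08), Jag2 (4.55), Hey1 (6.57) and Heyl (8.06). Jag1 again lost its call without MEF replicate 2 (0.90), MEF replicate 3 (1.07) or day 10 replicate 1 (0.83). Without MEF replicate 1, Notch1 was 2.58 on day 2 and 2.69 on day 10, and Rbpj was called lower on both days (-1.16 and -1.06), which it was not with that library (-0.85 and -0.86). The 4 comparisons share the same MEF libraries.

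Bulk iMPCs were set against day 10 with F/R/C, the last day of the time course. Of the 10 members, none was called between these groups, against 9.57% of all genes. Hes1 and Notch3 had an unadjusted p under 0.05 in edgeR, as had 5814 of the 17325 genes tested, and DESeq2 called no member. Notch3 was 99.7, 73.2 and 179 CPM in bulk iMPCs, below all 3 day 10 libraries, with a difference of -1.10 on the log2 scale and a 95% interval from -2.10 to -0.09 (edgeR adjusted p = 0.11). Dll1 was 30.2, 21.9 and 41.3 CPM, Hey1 32.4, 17.8 and 31.1 CPM, and Heyl 76.5, 30.1 and 116 CPM. Each of these 3 overlapped the day 10 libraries, with intervals of the difference from -1.29 to 0.20, from -1.83 to 0.24 and from -2.01 to 0.47. Notch1 (-0.69), Jag1 (-0.83) and Hes1 (0.46) did not overlap between these groups, with edgeR adjusted p of 0.16, 0.18 and 0.14. Against MEFs 6 members were called in bulk iMPCs, against 35.5% of all genes. Notch1 (1.11), Dll1 (6.14), Jag2 (3.98), Hey1 (5.78) and Heyl (7.29) rose and Rbpj fell by 1.08, or by 1.32 without MEF replicate 1. The Notch1 call was lost without MEF replicate 2 (0.92) or 3 (0.82), and was 1.97 without MEF replicate 1. The Rbpj call was lost without MEF replicate 2 (-0.79), MEF replicate 3 (-0.95) or bulk iMPC replicate 1 (-0.91).

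iMPCs differed from myoblasts most in Hey1 and Heyl. In bulk myoblasts Hey1 was 1.84, 1.75 and 0.764 CPM and Heyl 2.74, 14.1 and 1.64 CPM. All bulk iMPC libraries lay above these, by 4.22 for Hey1 (SE 0.59, edgeR adjusted p = 3.6e-06) and 3.57 for Heyl (SE 0.67, adjusted p = 0.00015) on the log2 scale, and by 3.91 and 3.12 without bulk myoblast replicate 3. Fitted on these 2 groups alone, Heyl (3.53) was not called (edgeR adjusted p = 0.063). Jag1 was 8.26, 7.46 and 10.3 CPM in bulk myoblasts and 23.8, 18.7 and 20.4 CPM in bulk iMPCs. It was called higher in iMPCs (1.28, edgeR adjusted p = 0.026), and the call was lost without any 1 of 4 libraries (1.18 to 1.30). The 3 calls, all higher, stand against 10.9% of all genes called higher. Jag2 and Notch2 had an unadjusted p under 0.05 in edgeR without a call, a p that 7369 of the 17325 genes tested reached. DESeq2 called Jag2 too, which was lower in bulk iMPCs, at 51.8, 34.4 and 45.6 CPM against 112, 44.3 and 129 CPM. Notch3 was 72.4, 49.6 and 345 CPM in bulk myoblasts, where the library that stood apart was the high one. Its difference from bulk iMPCs was -0.41 with that library (edgeR adjusted p = 0.55) and 0.95 without it (adjusted p = 0.12). The mean log2 CPM of 12 fibroblast genes was 6.6 in bulk iMPCs and 1.79 in bulk myoblasts. Their sums overlapped, at 2883 to 4666 CPM against 1213 to 7628 CPM. The part of these genes in the differences was not tested.

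Sorted Pax7+ iMPCs had the highest Notch1, Notch2, Notch3, Hey1 and Heyl means of all 15 groups. Notch3 was 712, 654 and 621 CPM there and 176, 132 and 44.4 CPM in sorted Pax7+ myoblasts. The groups did not overlap, and the log2 fold change was 2.49 (SE 0.51, edgeR adjusted p = 0.00018). Hey1 was 137, 117 and 76.6 CPM against 3.39, 33.4 and 14.5 CPM (2.69, SE 0.54, edgeR adjusted p = 0.00012), and Heyl 137, 509 and 347 CPM against 26.8, 26.4 and 40.6 CPM (3.41, SE 0.66, edgeR adjusted p = 8.8e-05). Jag1 was 25.3, 43.2 and 28.5 CPM against 6.35, 12.5 and 2.50 CPM (2.17, SE 0.46, edgeR adjusted p = 0.00024). None of these groups overlapped, and the 4 calls, all higher in iMPCs, stand against 12.4% of all genes called higher. Jag2 went the other way without overlap, at 30.3, 36.1 and 31.3 CPM against 69.1, 66.0 and 60.1 CPM. It was not called with all groups (-1.0, edgeR adjusted p = 0.062), and was called lower in edgeR on these 2 groups alone. Hes1 was higher in iMPCs below the minimum fold (0.83, edgeR adjusted p = 0.0025). Its groups overlapped, at 69.4, 35.2 and 44.7 CPM against 37.2, 30.6 and 15.7 CPM. In edgeR on these 2 groups alone, Hes1 did not reach an unadjusted p under 0.05. Dll1 did not differ beyond its error: 45.8, 58.3 and 73.4 CPM against 74.2, 52.9 and 66.7 CPM, with an interval from -0.87 to 0.61. The sum of 12 proliferation genes was 2296 to 2870 CPM in sorted iMPCs and 640.1 to 1249 CPM in sorted myoblasts. That of 12 differentiated muscle genes was 1414 to 1949 CPM against 4426 to 15563 CPM. The part of both in these differences was not tested.

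Receptors and targets were both higher in sorted than in bulk iMPCs. There 5 members were called higher in Pax7+ iMPCs (9.88% of all genes were): Notch1 by 1.58, Notch2 by 1.20, Notch3 by 2.50, Hey1 by 2.02 and Heyl by 2.15 on the log2 scale (edgeR adjusted p from 6.2e-06 to 0.0053). Notch2 was 162, 130 and 169.5 CPM against 58.4, 76.1 and 67.1 CPM, the only comparison of the 19 in which this receptor was called. Dll1 (0.92) and Hes1 (0.86) passed the p threshold below the minimum fold, and Jag1, Jag2 and Rbpj were not called. The summed differentiated muscle genes were 1414 to 1949 CPM in sorted and 22483 to 29268 CPM in bulk iMPCs, and their part in the result was not tested. In myoblasts 3 members were called higher after sorting (2.20% of all genes were): Dll1 by 1.44, Hey1 by 3.55 and Heyl by 2.32. All 3 calls were lost in a fit of fewer libraries. A fit on these 2 groups alone called none of all genes tested in edgeR, where 1423 genes and 4 members (Dll1, Notch1, Hey1 and Heyl) had an unadjusted p under 0.05, while DESeq2 on all groups called 1385 genes. Without bulk myoblast replicate 3, Dll1 was 1.22 (edgeR adjusted p = 0.054), Hey1 3.24 (0.0016) and Heyl 1.86 (0.077). Notch3 moved from -0.40 to 0.95 without it and was called in neither case. Sorted cells went straight into lysis buffer while cultures were trypsinised, per the labels, and the sorted libraries differ from the rest in the effective lengths the authors deposited. These cannot be told apart from sorting.

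In the order of groups by mean level, most neighbours overlapped. Of the 14 neighbouring pairs, 3 did not overlap for Hey1, 2 each for Notch3, Dll1, Hes1 and Heyl, 1 each for Notch1 and Jag2, and none for Notch2, Jag1 and Rbpj. No such count was made over all genes, so these numbers do not set the members apart from other genes. Pax7+ iMPCs stood above the next group without overlap for Notch1 (359.6 ± 67.8 CPM, SD, n = 3, against 215 ± 44.6 in Pax7+ myoblasts), Notch3 (662 ± 46.3 against 251 ± 55.8 on day 10 with F/R/C) and Hey1 (110 ± 30.6 against 47.1 ± 18.5 on day 10 with F/R/C). For Notch2 (154 ± 21.1 CPM) and Heyl (331 ± 186 CPM) they led as well and overlapped the next group. Dll1 and Hes1 were highest on day 2 of MyoD alone, at 74.7 ± 10.3 and 74.3 ± 4.44 CPM, and Hes1 was lowest on day 10 with F/R/C, at 19.9 ± 2.10 CPM. Jag1 was highest on day 4 of MyoD alone (56.5 ± 17.6 CPM) and lowest in Pax7+ myoblasts (7.13 ± 5.06 CPM), Jag2 was highest in bulk myoblasts (94.8 ± 44.6 CPM), and Rbpj in MEFs (486 ± 197 CPM).

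Levels can be compared between genes only per length, so the shares of each role were taken from TPM, the length-normalised abundance, of protein-coding transcripts. Notch2 led the receptors in MEFs with 45.3% ± 6.88 (SD, n = 3) of the 3 receptors' TPM, and held 40.1% ± 5.10 after 10 days of MyoD alone. With F/R/C its share on day 10 was 13.1% ± 1.71, and Notch3 led with 52.4% ± 6.04, against 32.3% ± 4.07 with MyoD alone. Pax7+ iMPCs were led by Notch3 (57.7% ± 4.89) and Pax7+ myoblasts by Notch1 (46.9% ± 3.84). The Notch3 share was 24.3% ± 9.26 in Pax7+ myoblasts, and no library of either sorted population reached the range of the other.

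Among ligands Jag1 held 68.4% ± 13.5 in MEFs. On day 2 of MyoD alone Dll1 held 59.4% ± 0.237, and on day 10 it held 5.95% ± 2.24 with MyoD alone and 34.6% ± 9.95 with F/R/C. Jag2 had the largest mean share on day 10, at 57.3% ± 19.2 with MyoD alone and 47.4% ± 16.5 with F/R/C. In replicate 1 another ligand led, Jag1 with MyoD alone and Dll1 with F/R/C. Dll1 was at similar shares in both sorted populations, 56.2% ± 6.60 in iMPCs and 54.7% ± 7.18 in myoblasts. Among targets Hes1 held 98.5% ± 0.935 in MEFs, 92.8% ± 3.73 on day 10 of MyoD alone and 92.2% ± 5.51 in bulk myoblasts. With F/R/C on day 10 it held 24.2% ± 8.15, with 30.3% ± 4.63 for Hey1 and 45.5% ± 3.69 for Heyl. Pax7+ iMPCs were alike in their means only, with 27.4% ± 12.3, 29.5% ± 8.82 and 43.1% ± 20.0. The 3 Pax7+ iMPC libraries had 3 different orders, and in replicate 1 Hes1 led (40.3%) and Heyl was lowest (20.3%).

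**Figure D5:**
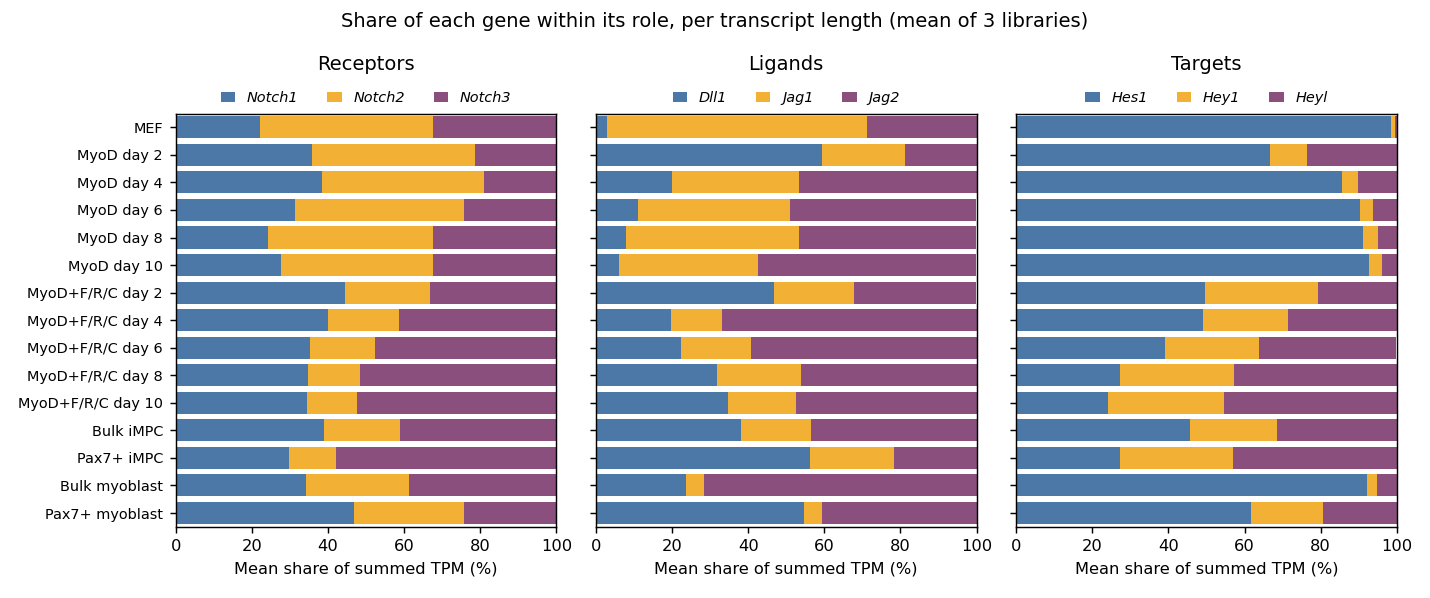
Mean share (%) of each gene in the summed TPM of its role, for receptors, ligands and targets, in the 15 groups of 3 libraries. Hes1 makes up over 90% of the target TPM in MEFs, on day 10 of MyoD alone and in bulk myoblasts, and 24.2% on day 10 with F/R/C, where Notch3 leads the receptors with 52.4%.

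Other genes of the pathway were taken as a list of 47, of which 44 were tested; Dll3, Hes5 and Hes7 were too low. Averaged over the 5 days, 3 were called higher with F/R/C (Dll4, Mfng and Nrarp) and 1 lower (Notch4), beside 11.6% of all genes called higher and 10.5% lower. The list's median log2 fold change was -0.24 against -0.03 for all genes. None of 8 genes of receptor cleavage, 6 nuclear coactivators or 5 nuclear corepressors was called in that average. Nrarp, a Notch-induced feedback inhibitor, was 1.11, 0.545 and 3.66 CPM on day 10 with MyoD alone and 5.49, 7.11 and 5.05 CPM with F/R/C. Its groups did not overlap (1.71, SE 0.66, edgeR adjusted p = 0.038). Notch4, a receptor known from endothelium, was low throughout: 5.55, 3.07 and 1.39 CPM with MyoD alone on day 10 against 1.59, 1.12 and 0.388 CPM with F/R/C, beside the endothelial sums given above. Dll4 stayed below 1 CPM in both arms on days 2 and 10.

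On day 10, 6 of the 44 were called higher with F/R/C and 2 lower, beside 9.91% and 13.4% of all genes. Besides Nrarp and Mfng the higher genes were Lfng, Dlk2, Neurl1b and Dtx4, and the lower ones Notch4 and Maml2, a coactivator (-1.51, edgeR adjusted p = 0.0081). Lfng and Mfng encode Fringe enzymes, which add sugars to Notch receptors and shift their response to ligands. Lfng was 7.59, 3.62 and 3.17 CPM with MyoD alone and 25.5, 27.1 and 11.6 CPM with F/R/C (2.16, SE 0.73, edgeR adjusted p = 0.018). Dtx4, a ubiquitin ligase of the Deltex family, was 9.12, 20.1 and 25.4 CPM against 130.2, 117 and 112 CPM (2.72, SE 0.67, edgeR adjusted p = 0.0016). Both groups of each gene were apart.

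Against MEFs, 8 of the 44 rose by day 2 of MyoD alone and none was called lower by edgeR, beside 12.3% and 10.1% of all genes. Hes6, a Hes relative known to promote myogenic differentiation, was 13.0, 11.6 and 13.0 CPM in MEFs and 685, 1008 and 697 CPM on day 2 (5.99, SE 0.54, edgeR adjusted p = 3.6e-10). Dner, a Delta-like surface protein of neurons, was 1.23, 0.883 and 1.84 CPM in MEFs and 203, 294 and 194 CPM on day 2 (7.47, SE 0.94, edgeR adjusted p = 1.8e-07). Between the sorted populations 7 of the 44 were higher in Pax7+ iMPCs and 4 lower, beside 12.4% and 17.6% of all genes. The list's median was 0.30 against -0.07 for all genes. Lfng was 58.4, 63.8 and 91.3 CPM in Pax7+ iMPCs and 2.82, 3.35 and 0.163 CPM in Pax7+ myoblasts (5.04, SE 0.83, edgeR adjusted p = 8.9e-06). Nrarp was 8.58, 19 and 23.8 CPM against 1.73, 1.8 and 3.8 CPM (2.81, SE 0.68, edgeR adjusted p = 0.001). Hes6 was lower in iMPCs, at 56.7, 37.7 and 43.5 CPM against 129.8, 85.4 and 179 CPM (-1.51, edgeR adjusted p = 0.0053). Bulk iMPCs had 1.12, 1.18 and 6.45 CPM of Lfng.

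As a description over the 15 group means of log2 CPM, Hey1 and Heyl followed each other closely (Pearson r = 0.97) and neither followed Hes1 (r = -0.02 and 0.09). Within the 10 groups of the time course, Hey1 also followed Notch1 (0.98), Rbpj (0.93), Dll1 (0.86) and Notch3 (0.85), and Hes1 ran against Notch3 (-0.82). Over all 15 groups Hey1 did not follow Rbpj (0.02). These groups share arms, days and MEF origin, so no p is given. The genes most like Hey1 were Gm15640, Rgs8 and Btbd17 (0.965, 0.957 and 0.954), those most like Heyl were Btbd17, Gm15640 and Sox8 (0.973, 0.952 and 0.942), and those most like Notch3 were Ung, Rmi2 and Exosc7 (0.982, 0.974 and 0.973). Dll1 was most like Slc29a1, Grip1 and Cdk5r1 (0.965, 0.952 and 0.935), and Hes1 most like Vgll4, Med28 and Tmeff1 (0.885, 0.871 and 0.866).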

How the data were processed

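The authors deposited 1 table per library with estimated counts and TPM of each transcript, in the layout of kallisto per the file headers. The submitters' processing notes name bcl2fastq 2.19, Trimmomatic 0.36, kallisto 0.44, edgeR 3.28 and GRCm38.p6. Per the labels' protocols, libraries were stranded, poly-A selected and read from 1 end. Of 121843 transcripts, 121104 matched GENCODE M21, holding 99.4% to 99.8% of reads. The deposited estimated counts were summed per gene and rounded. The deposited TPM were summed over protein-coding transcripts. Effective lengths are not uniform: the median of length minus effective length was 179.03 bases in the 6 sorted libraries and at most 151.81 in the others.

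All 45 libraries entered 1 quasi-likelihood fit in edgeR 4.0.16 (R 4.3.3, TMM, filterByExpr by group, a coefficient per group, 30 residual degrees of freedom). Calls needed a p under 0.05 after Benjamini-Hochberg adjustment over 17325 genes, and a log2 fold change of 1 or more in either direction. The method was tested on simulated data. Log2 CPM used a prior count of 2. A level of at most 3 reads was taken as the floor, which covers counting error only. Alternatives were RLE, DESeq2 1.42.0, no filter, only the compared groups, a replicate block, no fold minimum, effective lengths as offsets, and leaving out each library.

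The members and lists were chosen with earlier results of these data known. All members are named. Of the other pathway genes, counts per list and up to 3 called genes per list with the largest change may be named, and for 5 members the 3 most correlated genes.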

Additional observations from a re-analysis of the deposited data

Results flagged for a closer look

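The difference between MyoD with F/R/C and MyoD alone changed from day 2 to day 10 by the interaction test for 3 members. On the log2 scale it moved by 4.07 for Dll1, by 3.10 for Hey1 and by 5.41 for Heyl, and each was called in all 12 fits that left out 1 of the libraries involved.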

How the results depend on the processing

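Of 190 member values over the 19 comparisons, 76 were called, and none reversed under any alternative. RLE, DESeq2 and the replicate block lost none of the 76 calls. Without the filter on low counts, Heyl on day 4 (1.74) and Rbpj in bulk iMPCs against MEFs (-0.98) were lost. Fitting only the compared groups gave 7 members between day 10 and day 2 in place of 4, the 3 added ones in the F/R/C arm, and 5 for sorted against bulk cells in place of 8. Without a minimum fold change, the mean over days had 10 in place of 5. Those fits on the compared groups lost Hey1 (2.21), Jag1 (1.35) and Rbpj (-1.38) on day 10 of MyoD alone against MEFs, Notch1 in bulk iMPCs against MEFs (1.12), Heyl in bulk iMPCs against myoblasts (3.53), and Dll1 (1.44), Hey1 (3.55) and Heyl (2.33) in sorted against bulk myoblasts. Effective length offsets lost Heyl on day 4 (1.64), Notch1 (0.82) and Rbpj (-0.96) in bulk iMPCs against MEFs, and Notch2 in sorted against bulk iMPCs (1.00). The cause was not tested.

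Leaving out 1 library gave 17 to 19 called members by day (18 with all libraries), 5 to 5 for the mean over days, 3 to 3 for the change of the difference, 21 to 28 against MEFs (25), 4 to 5 for day 10 against day 2 (4), 4 to 6 for bulk iMPCs against MEFs and day 10 (6), 2 to 3 for bulk iMPCs against myoblasts (3), 4 to 5 between sorted populations (4) and 6 to 10 for sorted against bulk cells (8).

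With the replicate block these counts were 19, 5, 3, 25, 5, 6, 4, 5 and 8 in the same order. Same-numbered libraries of the arms on a day correlated from 0.062 to 0.375, with 13 of 15 pairs over 0.1, so numbers were not taken as pairs, and 13 of 15 MyoD-alone libraries correlated best with their own number.

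Over all genes, dropping the minimum fold raised the number called from 854 to 1401 on day 2, 4037 to 7108 on day 10, 3823 to 10654 for the mean and 1658 to 3549 for bulk iMPCs against day 10, with ratios from 1.44 to 2.79 over all comparisons. Fitting only the compared groups changed it from 854 to 1420 on day 2, from 3279 to 2019 for MyoD day 10 against MEFs, from 3396 to 1265 for bulk iMPCs against myoblasts, from 5199 to 3424 between sorted populations and from 1080 to 0 for sorted against bulk myoblasts, where effective lengths gave 1666. Without the filter the change of the difference had 649 in place of 1041, and the share called higher was 55.3% in place of 37.3%. Leaving out 1 library lowered counts by over 1.5 times to as few as 423 on day 2, 300 for the change of the difference, 605 between the days of MyoD alone, 2077 for MyoD day 10 against MEFs and 513 for sorted against bulk myoblasts. Depth limits Dll1, Hey1 and Heyl in MEFs, where they had 3 to 15 reads per library.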
